A study of Mus musculus with 2 samples.

Results

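The cells described here are the dendritic cells of a healing skin wound, and they were selected on measured transcript values. A cell had to give at least 1% of its transcript molecules from 4 MHC class II genes (H2-Aa, H2-Ab1, H2-Eb1 and Cd74) and at least 2 molecules from Flt3, Zbtb46, Ccr7, Cd209a, Xcr1 and Clec9a together. It also had to give under 0.1% from the 3 C1q genes of macrophages (C1qa, C1qb and C1qc) and under 1% from 3 fibrillar collagen genes. Of 8871 cells kept, 136 met this rule: 47 of 4661 in the young library and 89 of 4210 in the aged library. The study compared day 6 skin wounds of young and aged mice by droplet-based single-cell RNA sequencing of the 3′ ends of transcripts, counted as unique molecular identifiers (UMIs, one per captured molecule). Both groups were wild type C57BL/6 males with full-thickness wounds of 10 mm on the back, without any drug or transgene. The young mice were 2 months old and the aged mice 24 months old. Wounds of several mice were pooled into 1 library per age, and the number of mice is not given in the sources used here. Age and library therefore cannot be told apart, there is no test of any age difference, and the intervals printed are exact 95% intervals for counting error only.

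Dendritic cells take up antigen in tissues and present it to T cells on MHC class II molecules. Resting dendritic cells of skin are grouped into type 1 cells, which carry XCR1 and CLEC9A and are known for cross-presentation, and type 2 cells, which carry lectins such as CD209a and MGL2. On maturation either kind gains the chemokine receptor CCR7, which guides it through lymph vessels to the draining lymph node, together with costimulatory ligands for T cells. Macrophages of the wound, rich in C1q, share much of the antigen-presenting machinery, and 448 young and 722 aged cells with at least 0.2% C1q UMIs served as the set for comparison.

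All 7 dendritic cell markers were detected in the selected cells of both libraries. Levels are given as CPM, the usual counts-per-million scale, over the summed UMIs of a set of cells. Flt3, the growth factor receptor that dendritic cell precursors depend on, was at 105.0 CPM in young cells, where 24 of 47 held a UMI, and at 141 CPM in aged cells, where 51 of 89 did. Among C1q-high cells it was at 2.02 CPM in young and 0.799 CPM in aged cells. Zbtb46, a transcription factor of conventional dendritic cells, was at 66.2 and 69.9 CPM in the dendritic cells and at 3.45 and 2.84 CPM in the C1q-high cells. Since the rule used both genes, these levels describe the choice and are no test of it. Of the genes outside the rule, Itgax (CD11c, the integrin long used to sort dendritic cells) was at 128 and 65.0 CPM, against 10.5 and 5.41 CPM in C1q-high cells. Macrophage genes lay the other way: Apoe, the lipid carrier of macrophages, was at 223 and 139 CPM against 12758 and 10950 CPM, and the scavenger receptor gene Cd163 was at 0.946 and 2.10 CPM against 224 and 121 CPM.

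**Figure D1:**
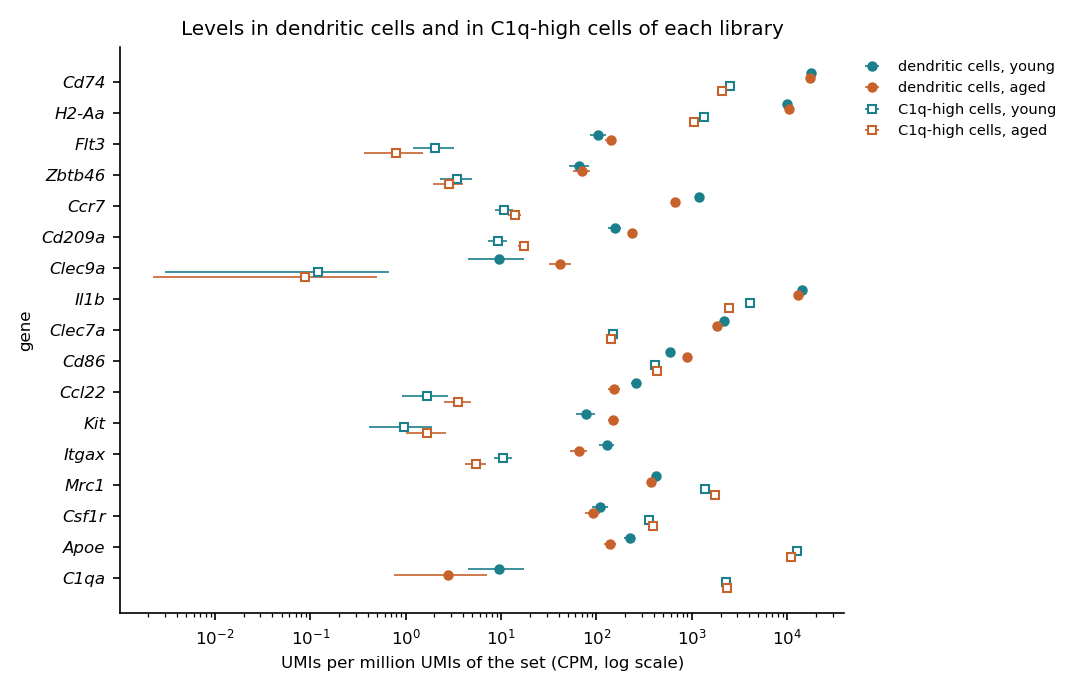
Levels of 17 genes in dendritic cells (filled circles) and C1q-high cells (open squares) of the young and aged libraries, in CPM on a log axis, with exact Poisson 95% intervals as bars. Of the genes plotted, Cd74 and Il1b stand highest in dendritic cells of both ages, while Apoe stands highest in C1q-high cells and C1qa is far lower in dendritic cells.

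The young dendritic cells held a median of 18689 UMIs per cell and the aged ones 14381, with ranges of 849 to 87089 and 2618 to 71348. The C1q-high cells were close in depth, with medians of 16994 and 13702 UMIs. Of a cell's UMIs, the 4 MHC class II genes took a median of 4.47% in the young library and 4.78% in the aged one. The nearest cells below the 1% cut that met every other criterion were at 0.891% and 0.962%, and the nearest above it at 1.15% and 1.17%. Exactly 2 dendritic cell UMIs were found in 2 young and 6 aged members, while 13 young and 11 aged cells missed the rule with exactly 1. The highest C1q shares among members were 0.0961% and 0.0877%, and the next cells above the cut were at 0.183% and 0.171%.

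Markers of other cell types were at or near 0 for keratinocytes and were present for several other types. The keratinocyte list (Krt5, Krt14, Krt1 and Krt10) summed to 0 and 0.699 CPM. The endothelial list (Pecam1, Cdh5 and Kdr) summed to 67.15 and 100.7 CPM, against 24.04 and 30.43 CPM in C1q-high cells. A young cell of 58162 UMIs held 54 UMIs of that list, and an aged cell of 71348 UMIs held 102. Of the plasmacytoid dendritic cell list, 4 of 6 genes were detected, summing to 375 and 586 CPM against 453 and 649 CPM in C1q-high cells, while its defining genes Siglech and Cox6a2 had no UMI in either library. Cd207 (langerin, the lectin of Langerhans cells) had 1 UMI in the young members and none in the aged ones, but with Epcam, Cdh1 and Cldn1 the Langerhans list summed to 99.3 and 55.2 CPM, against 2.14 and 1.69 CPM in C1q-high cells. Of the natural killer list, Ncr1 had no UMI at either age and the 4 genes summed to 2.84 and 23.8 CPM, the latter mostly from Nkg7, with 33 UMIs in 3 aged cells. The monocyte list summed to 861 and 1023 CPM, against 798 and 1388 CPM in C1q-high cells. Of that list Plac8, at 247 and 452 CPM, and Fn1, at 149 and 296 CPM, were higher in the aged members beyond 1.5-fold. Fn1 lost that call without the cell with the most UMIs, at a ratio of 1.55. Chil3 was lower, at 213 and 0.699 CPM, while Vcan, at 81.3 and 42.7 CPM, Ly6c2 and Ccr2 did not pass. The macrophage list summed to 815 and 722 CPM, with all 8 genes detected, and the innate lymphoid list to 509 and 438 CPM, of which Il7r made up 502 and 427 CPM. Of 6 T cell genes, all 6 were detected in the young members and 5 in the aged ones, summing to 219 and 81.1 CPM, with Cd3e in 6 young and 1 aged cell. The 6 B cell genes summed to 14.2 and 88.8 CPM, and Cd79a was in 0 young and 5 aged cells. The 6 neutrophil genes summed to 1560 CPM in young and 196 CPM in aged members, with Ly6g at 0 in both. The part of these transcripts in the age differences below was not tested, except where a value without the cells that hold them is given. No doublet caller was applied, so droplets with 2 cells have to be assumed to remain.

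Dendritic cells made up 1.01% of the young library (exact interval 0.742% to 1.34%) and 2.11% of the aged one (1.70% to 2.60%). The aged share was 2.10 times the young one (interval 1.46 to 3.05). Over 8 alternatives, 7 with other choices of cells and 1 without cells rich in S100a8 and S100a9, the ratio lay between 1.88, with every cell thinned to 2000 UMIs, and 2.21, without members that held lymphocyte receptor UMIs. C1q-high cells were also more frequent in the aged library, at 17.2% against 9.61%. Counted among dendritic and C1q-high cells together, dendritic cells took 9.49% of the 495 in the young library and 11.0% of the 811 in the aged one. That is a ratio of 1.16 (0.803 to 1.68), and this interval for counting error includes equality. These sets are not the whole myeloid compartment, and the age difference was not tested.

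Against C1q-high cells, 465 of 10750 genes with at least 50 UMIs (4.33%) were higher in the dendritic cells by more than 2-fold, interval included, in both libraries, and 471 (4.38%) were lower. Both sets of cells were chosen by their transcripts, so this comparison describes how they differ and tests nothing. The MHC class II list held 11 of 15 genes on the higher side, 4 of which belong to the rule. H2-Oa, a chain of the DO molecule that restrains peptide loading, was at 66.2 CPM in 23 of 47 young cells and at 89.5 CPM in 48 of 89 aged cells. In C1q-high cells it was at 0.357 and 0.710 CPM, so the ratios were 186 and 126. H2-DMb2, which encodes a chain of the DM peptide loader, was at 144 and 124 CPM against 0.714 and 1.51 CPM, while its paralogue H2-DMb1 was at 377 and 455 CPM against 60.3 and 60.5 CPM. The shares of reads between these similar genes depend on how they were counted. Ciita, the master transactivator of the class II genes, was at 58.6 and 78.3 CPM against 2.26 and 5.68 CPM. The asparagine endopeptidase gene Lgmn was the one list member on the lower side, at 246 and 205 CPM against 1119 and 1292 CPM.

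Class II promoters carry a conserved Y box, an inverted CCAAT element bound by the factor NF-Y, and 4 promoters are shown as the ones of the class II list in which its letters were found. H2-Aa and H2-Eb1 belong to the rule, and H2-Eb2 and H2-Oa do not. The letters CTGATTGG were searched on both strands in the 250 bases before each start in the RefSeq promoter table (build GRCm38.p6). They were found in 4 of the 12 list genes with an entry and in 1258 of all 32851 promoters (3.83%). Each stretch runs 5′ to 3′ from 120 to 21 bases before the annotated start, with the motif in capitals, on chromosome 17. The stretches are H2-Aa at chr17:34287844-34287943 (minus strand), H2-Eb1 at chr17:34305747-34305846, H2-Eb2 at chr17:34325555-34325654 and H2-Oa at chr17:34092259-34092358 (plus strand).
H2-Aa: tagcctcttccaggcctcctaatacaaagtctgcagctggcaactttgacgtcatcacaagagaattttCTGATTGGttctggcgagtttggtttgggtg
H2-Eb1: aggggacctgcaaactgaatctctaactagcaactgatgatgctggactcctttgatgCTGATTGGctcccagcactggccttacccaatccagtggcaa
H2-Eb2: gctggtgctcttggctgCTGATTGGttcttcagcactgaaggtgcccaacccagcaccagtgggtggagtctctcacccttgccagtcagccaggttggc
H2-Oa: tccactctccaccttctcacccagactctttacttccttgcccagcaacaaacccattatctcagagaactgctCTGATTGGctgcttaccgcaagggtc
The motif begins 51, 62, 103 and 46 bases before the start in H2-Aa, H2-Eb1, H2-Eb2 and H2-Oa. A match describes the letters only and shows no binding in these cells.

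Genes of T cell stimulation and of maturation were compared in the same way, beside 4.33% of all genes higher. Of 15 costimulatory and checkpoint ligands, 6 were higher and 1 lower than in C1q-high cells, and of 19 maturation genes 12 were higher and none lower, 1 of the 12 being Ccr7, which the rule used. Cd80, a ligand of CD28 on T cells, was at 434 CPM in young and 505 CPM in aged dendritic cells, against 35.5 and 42.4 CPM. Pdcd1lg2 (PD-L2, a ligand of the inhibitory receptor PD-1) was at 235 and 157 CPM against 9.04 and 5.32 CPM. Il4i1, an amino acid oxidase of mature dendritic cells, was at 206 and 136 CPM against 4.88 and 3.19 CPM. The ratios of these 3 genes were 12.2, 25.9 and 42.3 in the young library and 11.9, 29.4 and 42.7 in the aged one, so each library gave nearly the same size. The list member on the lower side was Vsir (VISTA, an inhibitory ligand), at 11.4 and 33.6 CPM against 87.1 and 107 CPM.

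Of all genes, 4.33% were above the 2-fold limit against C1q-high cells. Of 12 T cell polarizing cytokines the only one was Il1b, which encodes the inflammatory cytokine interleukin 1β. It was at 14208 CPM in young and 12911 CPM in aged dendritic cells, with a UMI in 45 of 47 and 82 of 89 cells. In C1q-high cells it was at 4029 and 2466 CPM, which gave ratios of 3.53 (3.46 to 3.60) and 5.24 (5.14 to 5.33). After thinning every cell to 2000 UMIs, 88.9% of young and 86.5% of aged dendritic cells still held an Il1b UMI, as did 54.6% and 44.5% of C1q-high cells. In collagen-rich cells, given for comparison, the thinned shares were 5.40% and 4.34%. These cells can express a gene themselves, and free RNA was not measured apart from them. Cells under 2000 UMIs were left out of these shares, which removed 2 young and 0 aged dendritic cells, 12 and 44 C1q-high cells, and 23 and 18 collagen-rich cells. Il10, which encodes an inhibitory cytokine, was on the lower side, at 117 and 9.09 CPM against 792 and 654 CPM.

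Receptors lay on both sides. Clec7a (dectin-1, a receptor for fungal glucans) was at 2193 and 1837 CPM against 149 and 141 CPM in C1q-high cells. Ly75 (DEC-205, an endocytic receptor of dendritic cells) was at 304 and 138 CPM against 4.28 and 3.99 CPM. Among receptors for growth factors, Kit, the receptor for stem cell factor, was at 77.6 CPM in 26 young cells and at 150 CPM in 48 aged cells, against 0.952 and 1.69 CPM. Kit is also on the mast cell list, of which Cpa3 and Cma1 had no UMI in the members. On the lower side were the macrophage growth factor receptor gene Csf1r, at 109 and 91.6 CPM against 358 and 391 CPM, and the immunoglobulin receptor genes Fcgr1, Fcgr3 and Fcgr4. Of 17 genes of the lysosome and phagocytosis, 10 were lower and 1 was higher, beside 4.38% and 4.33% of all genes. The higher one was Timd4, with its UMIs in 2 young and 4 aged cells.

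The 12 genes furthest above C1q-high cells included several best known from lymphocytes. Klrd1 (CD94, a subunit of natural killer receptors) was at 194 CPM in 27 of 47 young cells and at 306 CPM in 62 of 89 aged cells, against 0.119 and 1.42 CPM in C1q-high cells. After thinning, 26.7% of young and 38.2% of aged dendritic cells held a Klrd1 UMI, compared with 0% and 0.0723% of collagen-rich cells. Klrk1 (NKG2D, an activating receptor) was at 136 CPM in 24 young cells and at 241 CPM in 61 aged cells, with ratios of 164 and 101. P2ry10, a receptor for lysophospholipids, was at 228 CPM in 36 young cells and 371 CPM in 72 aged cells, against 0.833 and 3.02 CPM. These 3 genes were found in more than 20 cells of each library. The 4 genes of the natural killer list were at 2.84 and 23.8 CPM together, with Ncr1 at 0 in both libraries and Nkg7 in 1 young and 3 aged cells. The innate lymphoid list was at 509 and 438 CPM, against 92.7 and 103.5 CPM in C1q-high cells. The source of these transcripts was not tested.

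Btla, an inhibitory receptor of lymphocytes and dendritic cells, had 46 UMIs in 13 young cells and 116 in 27 aged cells, and none in C1q-high cells. Against the floor of 3 UMIs per set it was at least 122-fold and at least 305-fold higher. Cd7, an immunoglobulin family receptor of lymphocytes, had 51 UMIs in 13 young and 120 in 33 aged cells, against 0 and 1 UMIs. The others of the 12 were Ccl17, Cacnb2, H2-Oa, Ffar2, Klri2, Dscam and Adam23, of which Cacnb2 had 92.1% of its young UMIs in 1 cell. At the other end, all 12 genes had no UMI in any dendritic cell. They included Cd209f and Cd209g (lectins of the DC-SIGN family), Cd5l (a secreted macrophage protein) and Slc40a1 (ferroportin, the iron exporter). For Cd209f, which had 349 young and 452 aged UMIs in C1q-high cells, the floor of 3 UMIs puts the dendritic cell level at no more than 0.0683 and 0.0523 of theirs.

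Rules of at least 2 UMIs sorted the members by Ccr7, by Cd209a and by Xcr1 with Clec9a. Ccr7 was met by 31 of 47 young cells (66.0%, interval 50.7% to 79.1%) and by 51 of 89 aged cells (57.3%, 46.4% to 67.7%). The 5 aged cells with UMIs of the B cell gene Cd79a all met the Ccr7 rule alone, on 2 to 6 UMIs. They held 2618 to 4472 UMIs in all, with none of Flt3, Zbtb46, Cd209a, Xcr1 or Clec9a. Whether they are dendritic cells was not tested, and the shares include them. Cd209a was met by 12 young cells (25.5%, 13.9% to 40.4%) and 38 aged cells (42.7%, 32.3% to 53.6%). The type 1 genes Xcr1 and Clec9a were met by 4 young cells (8.51%) and 9 aged cells (10.1%). For each rule the young and aged intervals overlapped. At full depth 34 young and 60 aged members held a Ccr7 UMI, and 13 and 42 a Cd209a UMI. After thinning, 51.1% and 48.3% of the members held a Ccr7 UMI and 20% and 27.0% a Cd209a UMI, while collagen-rich cells held them in 0% and 0.289%, and in 0% and 0.0723%.

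**Figure D2:**
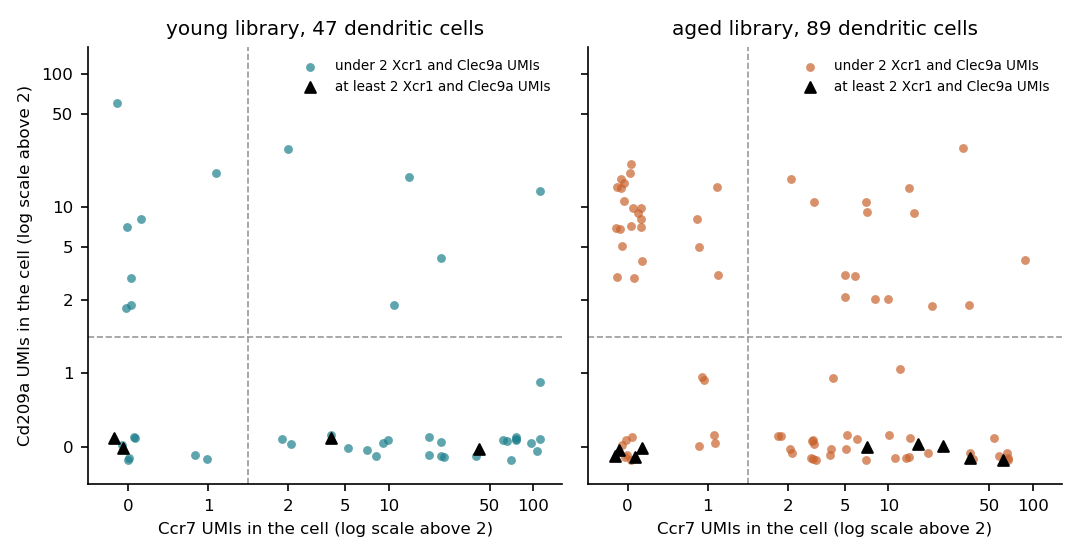
Ccr7 and Cd209a UMIs in each dendritic cell of the young (47 cells) and aged (89 cells) libraries, on axes that are linear up to 2 and logarithmic above, with points shifted at random by less than 0.2 UMIs for visibility. Dashed lines mark the 2-UMI rules and black triangles cells with at least 2 Xcr1 and Clec9a UMIs; 5 young and 15 aged cells lie in the upper right corner, where both rules are met.

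Both Ccr7 and Cd209a were met by 5 young and 15 aged cells, Ccr7 with the type 1 genes by 2 and 5, and no rule by 7 and 11. The cells that met 1 rule only were compared, with 24 young and 31 aged cells for Ccr7, and 7 and 23 for Cd209a. The 31 include the 5 aged cells with Cd79a UMIs. Of 3962 genes, 56 were higher in the Ccr7 set beyond 2-fold in both libraries (1.41%) and 17 in the Cd209a set (0.429%). These counts include Ccr7 and Cd209a themselves, which define the sets. The chemokine gene Ccl22, which encodes a ligand of CCR4 on T cells, stood at 529 CPM among young Ccr7-set cells and at 436 CPM among aged ones, and had no UMI in either Cd209a set. In the young Ccr7 set, 1 cell held 144 of its 243 UMIs. Fscn1 (fascin, the actin-bundling protein of mature dendritic cells) was at 548 and 180 CPM against 0 and 6.68 CPM. In the young Ccr7 set, cells with 75, 64, 46, 33 and 24 Fscn1 UMIs held most of the 252. Tbc1d4, a regulator of vesicle traffic, was at 1266 and 1344 CPM against 73.8 and 28.9 CPM, with ratios of 17.2 and 46.5. Relb, an NF-κB subunit of maturing dendritic cells, was at 346 and 417 CPM against 80.5 and 145 CPM. Socs2, Il4i1, Ly75, Cd200 and Stat4 were among the 56 as well. So were the neutrophil genes S100a8 and S100a9. For S100a8 the levels were 814 and 188 CPM against 6.71 and 44.5 CPM, and 1 cell held 43.6% of the 374 young and all of the 70 aged UMIs of the gene in the Ccr7 set.

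In the Cd209a set the mannose receptor gene Mrc1 was at 919 CPM in young and 848 CPM in aged cells, against 32.6 and 88.7 CPM in the Ccr7 set. Mrc1 is also on the macrophage list. The lectin gene Mgl2 was at 866 and 323 CPM against 100.1 and 56.5 CPM. In the young Cd209a set, cells with 67 and 52 Mgl2 UMIs held most of the 129. Ear2, a ribonuclease of myeloid cells, was at 382 and 211 CPM against 28.3 and 0 CPM. Cxcl1, Cxcl9 and Ccl6 of the chemokines, and Stmn1 and Pclaf of the proliferation genes, were on this side too. Flt3 was at 0 and 40.1 CPM in the Cd209a set, against 185 and 215 CPM in the Ccr7 set. Of the type 2 list, Itgam was higher in the Cd209a set in both libraries and Ccl17 lower, while Sirpa, Irf4 and Clec10a changed sides. Over all members that list summed to 1296 and 851.5 CPM, against 848.2 and 940.5 CPM in C1q-high cells. Of the monocyte list, Ccr2 and Fn1 were higher in both libraries and the others were not. Whether these are type 2 dendritic cells was not tested.

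The few cells selected on Xcr1 and Clec9a alone, 2 young and 4 aged, can be given as levels only. Irf8, the transcription factor of type 1 dendritic cells, was at 988 and 918 CPM in them, against 483 and 255 CPM in the Ccr7 set and 148 and 95.7 CPM in the Cd209a set. Wdfy4, required for cross-presentation, was at 715 and 1078 CPM, compared with 15.2 and 40.3 CPM in the Ccr7 set. Clec7a was at 21.03 and 134.7 CPM in them, compared with 1657 and 2074 CPM in the Cd209a set.

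Between the ages, 200 of 5483 genes with at least 50 UMIs in the members were higher in aged dendritic cells by more than 1.5-fold, interval included (3.65%), and 176 were lower (3.21%). The higher share of these calls was 53.2%, and it was 33.3% after TMM scaling, 70.7% for means of per-cell CPM, 65.3% when the cell with the most UMIs of each gene was left out, and 66.0% in the Cd209a set alone. The balance of the directions thus depended on the scaling, and under TMM the median over all tested genes moved from 0.15 to 0.00 on the log2 scale. Single cells carried many genes: 203 of 3147 genes in the young members and 110 of 4105 in the aged ones, each with at least 50 UMIs there, had 30% or more of their UMIs in 1 cell. A young cell of 87089 UMIs was that cell for 77 genes and held 1022 of the 1099 young UMIs of the metalloelastase gene Mmp12. Without the cell with the most UMIs of each gene, 170 of the 200 higher and 120 of the 176 lower calls were kept.

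Chemokines formed the list furthest from equality. None of 15 tested was higher in aged dendritic cells and 10 were lower, beside 3.21% of all genes, and the list's median was -1.79 on the log2 scale beside 0.15 for all genes. Cxcl2, a ligand of the neutrophil receptor CXCR2, was at 11624 CPM in 40 of 47 young cells and at 3089 CPM in 60 of 89 aged cells, a ratio of 0.266 (0.257 to 0.275). In C1q-high cells it was at 23617 and 15915 CPM, a ratio of 0.674. Among single dendritic cells the Cxcl2 level ran from 0 to 76960 CPM with a median of 247 CPM in the young library, and from 0 to 53514 CPM with a median of 75.4 CPM in the aged one, so the ranges overlapped widely. After thinning, 51.1% of young and 34.8% of aged dendritic cells held a Cxcl2 UMI, but so did 78.5% and 81.9% of collagen-rich cells. The dendritic cell shares therefore cannot serve as a measure of expression. Whether the collagen-rich shares came from free RNA or from those cells' own transcripts was not tested.

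**Figure D3:**
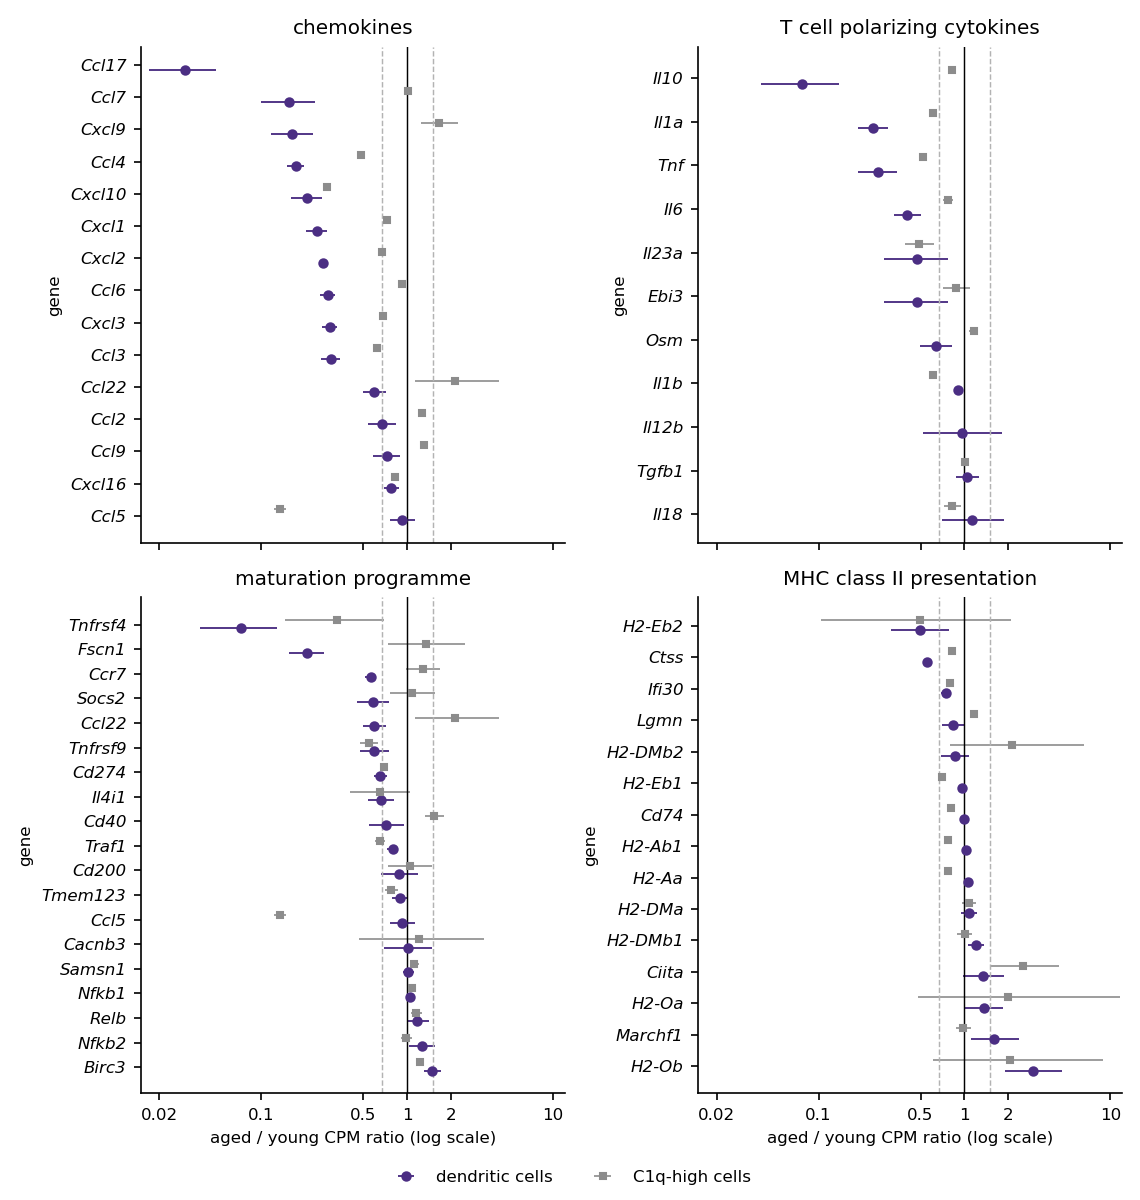
Aged to young CPM ratio of each gene of 4 lists with at least 20 UMIs, on a log axis, in dendritic cells (purple circles) and C1q-high cells (grey squares), with exact 95% counting intervals; dashed lines mark 1.5-fold. In the chemokine panel 10 dendritic cell intervals lie wholly left of the dashed line, and in the MHC class II panel Ctss lies left of it and H2-Ob right of it.

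The chemokines for T cells and monocytes varied more. Ccl17, which encodes the other CCR4 ligand, was at 375 CPM in 11 young cells and at 11.2 CPM in 8 aged cells, a ratio of 0.0299 (0.0169 to 0.0491). With 1 cell holding 44.7% of its young UMIs, the ratio without the cell with the most UMIs was 0.0405. Ccl22 was at 257 and 153 CPM (0.595, 0.496 to 0.714) and did not pass. Ccl4, an attractant of monocytes and T cells, was at 1022 and 176 CPM, a ratio of 0.172 (0.149 to 0.197), against 0.483 in C1q-high cells. Cxcl9, a ligand of CXCR3 on T cells, was at 205 and 33.6 CPM (0.164, 0.117 to 0.224), with its UMIs in 6 cells of each library. Cxcl16, at 474 and 369 CPM, and Ccl5, at 171 and 159 CPM, did not pass either.

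The neutrophil-attracting chemokines Cxcl1, Cxcl2 and Cxcl3 lie in a cluster on chromosome 5 and were all on the lower side. Cxcl1 was at 547 and 131 CPM (0.239, 0.202 to 0.283) and Cxcl3 at 971 and 286 CPM (0.294, 0.262 to 0.330). Their promoters are shown because the 3 genes carry the same 9 letters of a κB site, the element through which NF-κB is known to act on them. GGAATTTCC, searched on both strands over 250 bases as above, was in 4 of 10 chemokine list genes with a promoter entry and in 94 of 32851 promoters (0.286%). The fourth was Cxcl10, whose match begins 158 bases before the start, outside the stretch shown for the others. The stretches, from 120 to 21 bases before the start on the plus strand of GRCm38.p6, are Cxcl1 at chr5:90891125-90891224, Cxcl2 at chr5:90903779-90903878 and Cxcl3 at chr5:90785981-90786080, with the motif in capitals.
Cxcl1: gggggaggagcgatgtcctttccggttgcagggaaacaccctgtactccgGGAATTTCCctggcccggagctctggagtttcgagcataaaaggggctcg
Cxcl2: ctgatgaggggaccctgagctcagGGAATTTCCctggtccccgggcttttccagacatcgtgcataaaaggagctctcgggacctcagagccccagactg
Cxcl3: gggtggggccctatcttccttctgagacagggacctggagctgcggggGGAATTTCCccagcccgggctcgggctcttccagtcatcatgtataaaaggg
The motif begins 70, 96 and 72 bases before the start in Cxcl1, Cxcl2 and Cxcl3. The NF-κB subunit genes Nfkb1 and Relb themselves were at 1590 and 205 CPM in young cells and at 1658 and 241 CPM in aged ones, and neither passed.

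The lower chemokine levels were also seen within the subsets. In the Ccr7 set 11 of 15 chemokines with at least 20 UMIs were lower and none higher, beside 3.34% lower and 5.26% higher of 4788 genes. In the Cd209a set 6 of 12 were lower and none higher, beside 2.39% and 5.14% of 4147 genes. Cxcl2 was at 13363 and 5136 CPM in the Ccr7 set (0.384, 0.365 to 0.405) and at 20135 and 3766 CPM in the Cd209a set (0.187, 0.176 to 0.199). Ccl4 differed between the sets, with a ratio of 0.0291 (0.0172 to 0.0464) in the Ccr7 set and 0.739 (0.438 to 1.28) in the Cd209a set, and that difference was not tested. Neutrophil markers moved in the same direction as the chemokines over all members, as given above. Without the members that had 0.1% or more S100a8 and S100a9 UMIs, the chemokine median was -1.74.

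Of 10 tested cytokines, 4 were lower in aged dendritic cells and none was higher, with a list median of -0.92, beside 3.21% of all genes lower and 3.65% higher. Il10 was at 117 CPM in 11 young cells and at 9.09 CPM in 5 aged cells, a ratio of 0.0775 (0.0401 to 0.138), and 0.826 in C1q-high cells. Il6, an acute inflammatory cytokine, was at 231 and 93.7 CPM (0.406, 0.326 to 0.503). Tnf was at 163 and 41.3 CPM (0.254, 0.185 to 0.343) and Il1a at 292 and 69.2 CPM (0.237, 0.187 to 0.298). Il1b differed much less, at a ratio of 0.909 (0.889 to 0.929). Il12b, a subunit of the interleukins 12 and 23, had its UMIs in 2 cells of each library. Il6 was lower in both subsets, with ratios of 0.236 and 0.246 in the Ccr7 and Cd209a sets, while Il1a was lower in the Ccr7 set (0.185, 0.125 to 0.268) and at 0.758 (0.445 to 1.33) in the Cd209a set.

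Maturation genes mostly did not pass. Of 19 tested, 3 were lower and none higher, beside 3.21% of all genes lower and 3.65% higher. Fscn1 was at 239 CPM in 10 young cells and at 48.9 CPM in 8 aged cells (0.205, 0.155 to 0.268). Ccr7, itself part of the rule, was at 1193 and 669 CPM (0.561, 0.515 to 0.611), and in the Ccr7 set alone at 2284 and 1460 CPM (0.639, 0.575 to 0.710), where it did not pass. Tnfrsf4 (OX40), known as a costimulatory receptor of T cells, was at 125 and 9.09 CPM, with UMIs in 10 young and 5 aged cells. Il4i1, Socs2, Cd40 and Cd274 had ratios from 0.583 to 0.719 with intervals that reached past the 1.5-fold limit.

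In the Ccr7 set the list's median was 0.12, against -0.33 over all members. Costimulatory and checkpoint ligands lay on both sides. Cd86, a ligand of CD28, was at 596 CPM in 44 young cells and at 889 CPM in 84 aged cells, a ratio of 1.49 (1.36 to 1.65) that missed the limit. Tnfsf4 (OX40 ligand) was at 19.9 CPM in 5 young cells and at 54.5 CPM in 21 aged cells (2.75, 1.68 to 4.68). Vsir was at 11.4 and 33.6 CPM (2.96, 1.55 to 6.12). These 2 were the members of 13 tested on the higher side, and none was lower, beside 3.65% and 3.21% of all genes. In the Cd209a set, 3 of 10 were lower and none higher, namely Tnfsf9 at 0.175, Cd274 at 0.316 and Pdcd1lg2 at 0.255, beside 2.39% lower and 5.14% higher over all genes of that set. Over all members this list's median was 0.10, and -0.11 from means of per-cell CPM. In the Ccr7 and Cd209a sets it was 0.345 and 0.355. The MHC class II list had 1 gene on each side of 15, beside 3.65% higher and 3.21% lower of all genes, with a median of 0.03. H2-Ob, the partner chain of H2-Oa, was at 24.6 CPM in 17 young cells and at 72.0 CPM in 42 aged cells (2.93, 1.89 to 4.69). Ctss (cathepsin S, which trims the invariant chain) was at 3132 and 1724 CPM, but 1 young cell held 42.04% of its young UMIs, and without the cell with the most UMIs in each library the ratio was 0.908. Cd74, H2-Aa, H2-Ab1 and H2-Eb1 had ratios from 0.960 to 1.05.

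Several transcription factors were higher in the aged cells. Bach2, a repressor that restrains effector programmes in lymphocytes, was at 87.0 CPM in 24 of 47 young cells and at 357 CPM in 62 of 89 aged cells, a ratio of 4.10 (3.28 to 5.17). In C1q-high cells its ratio was 1.70. After thinning, 13.3% of young and 44.9% of aged dendritic cells held a Bach2 UMI, compared with 7.63% and 5.93% of collagen-rich cells. The median cell had 17.2 CPM in the young library and 162 CPM in the aged one. Its ratio was 3.85 (2.62 to 5.77) in the Ccr7 set and 7.74 (3.47 to 21.5) in the Cd209a set. Beside this, B cell genes were in the aged Ccr7 set, with 26 UMIs of Cd79a, 10 of Ms4a1, 15 of Pax5 and 46 of Ebf1, against 0 in the young one, while of these only Ebf1 had UMIs in the aged Cd209a set. Without the members that held lymphocyte receptor UMIs, the Bach2 ratio over all members was 3.97. Ikzf1 (Ikaros, a haematopoietic factor) was at 72.8 and 186 CPM (2.55, 1.98 to 3.34) and Tcf4, known for plasmacytoid dendritic cells, at 133 and 333 CPM (2.50, 2.06 to 3.03). For Tcf4, 1 aged cell held 33.4% of the UMIs, and the ratio without the top cell was 2.07. That aged cell was the one of 71348 UMIs with endothelial marker UMIs. Id2, a factor required for type 1 dendritic cells, lay the other way, at 1103 and 541 CPM (0.491, 0.448 to 0.538), and at 0.360 and 0.411 in the Ccr7 and Cd209a sets. In all, 3 of 15 lineage factors were higher and 1 was lower, beside 3.65% and 3.21% of all genes. Of the higher ones, Bcl6 lost its call without the top cell.

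Among receptors, the lectin and Fc receptor list had 1 gene higher and 6 lower of 17, beside 3.65% and 3.21% of all genes. Clec4n (dectin-2) was at 577 and 157 CPM (0.271, 0.232 to 0.317) and Clec4e (mincle, a receptor for mycobacterial and cell-death lipids) at 964 and 315 CPM (0.327, 0.292 to 0.366). Ly75 was at 304 and 138 CPM (0.454, 0.378 to 0.543). Mgl2, Fcgr2b and Fcgr3 were the others on the lower side, and Mgl2 and Fcgr3 lost the call without the top cell. Clec9a, which belongs to the rule, was higher, at 9.46 CPM in 5 young and 41.95 CPM in 11 aged cells. Of 10 growth factor receptors none passed, although Kit had a ratio of 1.94 (1.496 to 2.531). The homing receptor gene Cxcr4 was at 55.8 and 119 CPM (2.13, 1.58 to 2.92), while Ccr1 and Ccr2 had ratios of 0.990 and 1.42 and did not pass.

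Of 13 interferon response genes 5 were lower and none was higher, beside 3.21% of all genes lower and 3.65% higher. Isg15, a ubiquitin-like protein induced by interferon, was at 424 CPM in 32 young cells and at 194 CPM in 38 aged cells (0.459, 0.394 to 0.534), and had a ratio of 0.398 in C1q-high cells. The list's median over 20-UMI genes was -0.03 and was -0.84 over genes with at least 50 UMIs. Of 13 lysosome and phagocytosis genes 8 were lower and none higher, beside the same shares of all genes, with a median of -0.88. Only 2 remained lower without the top cell of each gene, Cd63 and Timd4. The young cell of 87089 UMIs held 1392 of the 3311 young UMIs of the protease gene Ctss. The 18 lists are set side by side in the plot of list medians.

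**Figure D4:**
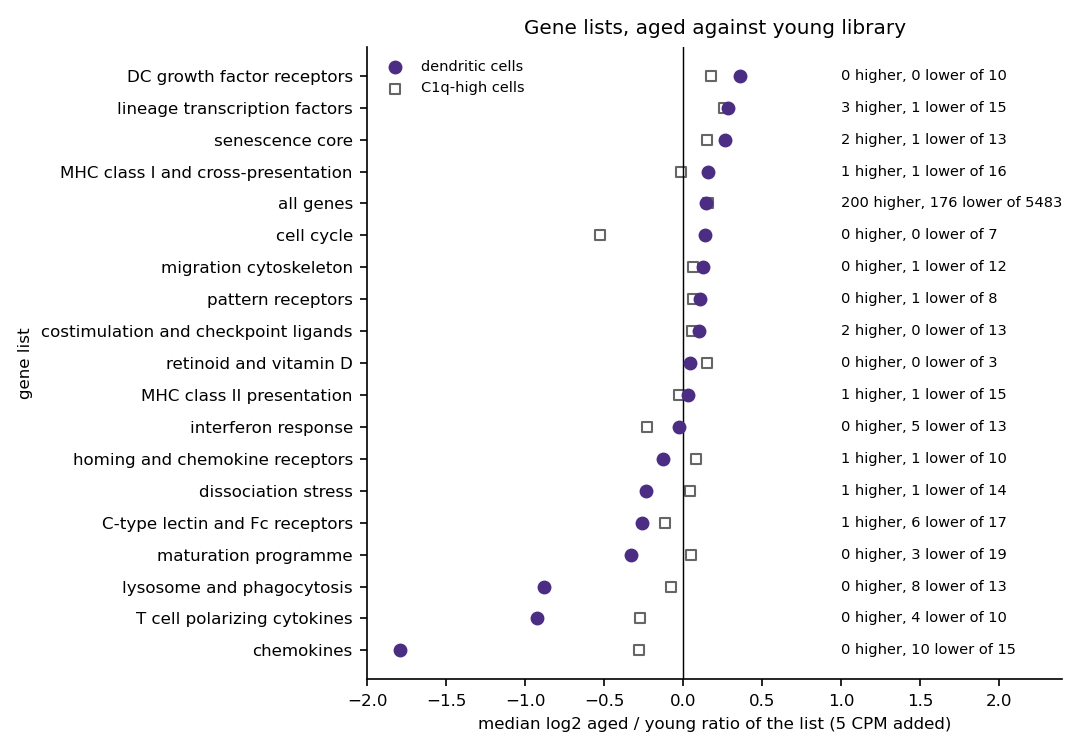
Median log2 ratio of aged to young CPM (5 CPM added) for 18 gene lists and all genes, in dendritic cells (purple circles) and C1q-high cells (open squares), with the number of genes beyond 1.5-fold among those tested in dendritic cells at right. Chemokines lie lowest at -1.79 in dendritic cells and at -0.28 in C1q-high cells, and all genes lie at 0.15 and 0.16.

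Of the single genes furthest from equality, Scin (scinderin, an actin-severing protein) was at 32.2 CPM in 7 young cells and at 207 CPM in 26 aged cells, a ratio of 6.44 (4.50 to 9.47). It was higher in both subsets, at 5.74 in the Ccr7 set and 3.74 in the Cd209a set, and at 2.58 without the 5 young and 9 aged members of greatest depth. Gfod1 was at 22.7 CPM in 12 young cells and at 101 CPM in 51 aged cells (4.47, 2.886 to 7.196). Slc9a9, an endosomal ion exchanger, and Prr5l, a partner of the kinase complex mTORC2, had ratios of 4.62 and 4.10. Selp (P-selectin), at 6.06, had 79.0% of its aged UMIs in 1 cell of 71348 UMIs, which also held 102 endothelial marker UMIs. Ms4a4b, at 9.43, had 66.7% in 1 aged cell. The others of the 12 highest were D17H6S56E-5, Rgs7bp, H1f5, Klra17 and Zbtb44.

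On the lower side, the chitinase-like gene Chil3 had 225 UMIs in 7 young cells and 1 UMI in the aged ones. Il17a (interleukin 17A) had 111 UMIs in 5 young cells, 61.3% of them in 1 cell, and none in the aged ones. Il23r had 58 and 0 UMIs. Beside these, Trdc, a chain of the γδ T cell receptor, had 50 UMIs in 3 young cells and none in the aged ones. Inhba (activin A subunit) was at 1021 CPM in 18 young cells and at 81.1 CPM in 7 aged cells, where 1 cell held 93.1%. Pla2g7, a phospholipase that breaks down platelet-activating factor, was at 306 and 45.4 CPM (0.149, 0.112 to 0.195). Mfge8, a bridging protein for uptake of dying cells, was at 167 and 12.6 CPM (0.0756, 0.0438 to 0.123). Maf, at 0.119, turned to 3.14 without members that held lymphocyte receptor UMIs, and Mmp12, at 0.129, was at 0.768 without the top cell. Sfn and Pmp22 completed the 12 with Ccl17 and Tnfrsf4.

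Genes of cellular senescence were examined because of their bearing on aged tissue. Cdkn1a (p21, which halts the cell cycle) was at 1384 CPM in 45 of 47 young cells and at 1573 CPM in 80 of 89 aged cells, a ratio of 1.14 (1.06 to 1.22). Per cell, the level ran from 0 to 4307 CPM with a median of 1307 CPM in the young library and from 0 to 4694 CPM with a median of 1478 CPM in the aged one. Cdkn2a (p16 and Arf) had 2 UMIs in 1 young cell and 3 UMIs in 1 aged cell, so it was at or near the floor in both. Lmnb1 (lamin B1, which is known to be lost in senescent cells) was at 433 and 676 CPM (1.56, 1.40 to 1.75), which did not pass, and at 5.491 and 6.502 times the level of C1q-high cells. Cdkn2d, a further cell cycle inhibitor, was at 18.9 CPM in 12 young and 51.7 CPM in 36 aged cells (2.74, 1.65 to 4.73). Gdf15, a secreted stress protein, had 74 UMIs in 3 young cells and none in the aged ones, with 95.95% of them in 1 cell, and it lost its lower call without that cell. The proliferation marker Mki67 was at 79.5 CPM in 19 young cells and at 83.2 CPM in 20 aged cells (1.05, 0.785 to 1.40), and none of 7 cell cycle genes passed in either direction.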

How the data were processed

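The deposited files hold raw UMI counts, with a value per gene and cell barcode, and the matrix headers name Cell Ranger 8.0.1 as the authors' software. Beside STAR, Seurat 4 and the mouse build GRCm38 (mm10), Cell Ranger 9.0 is listed in the submitters' processing notes, so its version differs between sources. The labels name the 10x kit both as version 3 and 3.1. The young library held 4932 barcodes and 111810068 UMIs, the aged one 4379 and 107865898. A barcode was kept with at least 500 UMIs and 200 genes and with less than 15% of its UMIs mitochondrial. In all, 3 barcodes occurred in both libraries, none in a member. Members and lists were chosen with earlier results of these data known. Counts were summed over members per library and given as CPM. Ratios carry exact conditional binomial intervals, levels exact Poisson intervals and shares Clopper-Pearson intervals. PCR duplicates were collapsed by UMI, but cells of 1 library share their source. Age calls needed 50 UMIs and an interval beyond 1.5-fold, and calls against C1q-high cells one beyond 2-fold in both libraries. List medians added 5 CPM over genes with at least 20 UMIs. Named genes were the rule's genes, the 12 highest and lowest of each comparison, the extremes of each list, and Cdkn1a and Cdkn2a. A minimum share of cells, and a minimum level beside the other sets, was asked for in the age comparison only. Single genes named beyond these were chosen after their values were seen. Alternatives were TMM scaling (edgeR 4.0.16 in R 4.3.3), per-cell means, other count minimums, thinning to 2000 UMIs, and leaving out the deepest, lymphocyte-transcript or neutrophil-transcript members. The subset fits and leaving out each gene's top cell were added after seeing the data. No doublet caller was run. The count calls were tested on simulated data. Python 3.11.15, numpy 2.4.6, pandas 2.3.3 and scipy 1.17.1 were used. Promoters came from RefSeq GRCm38.p6. Some list genes are not reported here.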

Additional observations from a re-analysis of the deposited data

Results flagged for a closer look

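Clu and Slamf1 stood out because dendritic cells were above C1q-high cells in one library and below them in the other, and that difference between the libraries was not tested. Clu (clusterin, a secreted chaperone) had a ratio of 19.87 in the young library (3.25 to 208.7), which rests on 5 UMIs in 2 dendritic cells against 2 UMIs in C1q-high cells. In the aged library its ratio was 0.204, with 8 UMIs in 2 dendritic cells against 309. Slamf1, a receptor of lymphocytes and myeloid cells, had 36 UMIs in 8 young dendritic cells and 9 UMIs in 5 aged ones, with ratios of 3.289 and 0.1847.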

How the results depend on the processing

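No paired analysis was possible because there is 1 library per age, and for the same reason no replicate could be left out. The aged to young ratio of the dendritic cell share kept its direction under every alternative run, and among dendritic and C1q-high cells alone it was 1.16, with an interval that includes equality. The number of genes higher in aged cells was 120 with TMM scaling, 1288 from per-cell means without intervals, 93 with at least 200 UMIs and 126 in the Cd209a set. The number lower was 534 from per-cell means, 91 with at least 200 UMIs, 105 in the Ccr7 set and 65 in the Cd209a set. Of these alternatives, the higher minimum tests 2129 genes and the sets hold fewer cells, and for the others the cause was not tested. With members thinned to 2000 UMIs in a random draw of their own, separate from the one behind the thinned shares above, and at least 1 UMI asked for, the Ccr7 share was 48.9% in young and 44.9% in aged members, the Xcr1 and Clec9a share 2.22% and 3.37%, and the Cd209a share 15.6% and 29.2%. Single genes that reversed were Selp, at 0.0687 in the Ccr7 set, Mmp12 at 2.82, Pmp22 at 1.49 and Ccr7 at 1.33 in the Cd209a set (Pmp22 on 2 and 9 UMIs, and Ccr7 on 1 and 4, a level its own rule fixes), and Maf at 3.14 without members holding lymphocyte receptor UMIs; the cause was not tested. Over all alternatives, 44 of 356 values of named genes lost their call and 1 gained it. Of 133 list medians 9 moved by over 0.2, among them cytokines to -0.50 and lysosome genes to -0.49. With 47 and 89 cells, genes under 50 UMIs could not be judged, and 1 deep cell can carry a gene.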
